A study of Neurospora crassa with 11 samples.

Results

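The genes described here encode the aminoacyl-tRNA synthetases of the filamentous fungus Neurospora crassa. They were chosen by name only, as every gene whose product name in the authors' comparison table contains "yl-tRNA synthetase", and this gave 33 of the 9758 genes in the count tables. Product names covered 19 amino acids, 8 of them with 1 gene, 8 with 2 genes and 3 with 3 genes. Leucine had no member, because its genes leu-5 and leu-6 (NCU03814 and NCU09463), known to encode the mitochondrial and the cytosolic leucyl enzyme, carry the product names leucine-5 and leucine-6. They are given below beside the members. The word mitochondrial, meant to separate the enzymes of the mitochondrion from those of the cytosol, stood in 0 of the 33 names, so that split could not be made. The members lay on all 7 chromosomes, 10 of them on chromosome I, and 33 of 33 had the start and end of the RefSeq gene in assembly NC12. At 10 of the 33 loci the deposited coordinates overlapped another locus. The sources used here do not say whether strand was kept, and without it the reads of such neighbours cannot be told apart.

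An aminoacyl-tRNA synthetase joins an amino acid to the tRNAs that carry its anticodons, and the charged tRNA then delivers that amino acid to the ribosome. Fungi charge tRNAs in the cytosol and in the mitochondrion, with a separate nuclear gene for each compartment for some amino acids and a shared gene for others. In Neurospora, uncharged tRNA is sensed by the kinase CPC-3, and the transcription factor CPC-1 then raises genes of amino acid synthesis and of some synthetases, a response known as cross-pathway control.

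RNA from whole fungus was sequenced in 11 libraries, in a study of the transcription factor XLR-1, which is required for growth on xylan, the main hemicellulose of plant cell walls. Cultures were grown for 16 h with sucrose in Vogel's minimal medium, washed, and moved to Vogel's medium with xylan, with sucrose or without a carbon source. The sources used here do not give the time spent there. All strains derive from OR74A (FGSC2489). The groups were a strain lacking xlr-1 (deltaxlr-1::HygR) on xylan, with 4 libraries, a strain with the XLR-1 A828V allele without carbon, with 3 libraries, the same A828V strain on sucrose, with 1 library, and wild type on xylan, with 3 libraries. The A828V strain carries the allele at his-3 behind the promoter of the clock-controlled gene ccg-1 (his-3::p_ccg1::xlr-1-A828V), lacks its own xlr-1 (deltaxlr-1::HygR) and is of mating type a. The labels do not state separate cultures for the libraries within a group, so the p-values rest on a spread between libraries that may be technical.

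Gene counts per library ranged from 10317390 to 18927605. The xlr-1 transcript, counted in CPM (reads scaled to the size of the library), was at 3.28 to 11.8 CPM in deletion libraries, 109 to 129 in A828V libraries without carbon, 199 on sucrose and 112 to 158 in wild type. Cultures of this kind can form conidia, the asexual spores, for which the markers were con-6, con-8, con-10, con-13, eas and al-1. Their summed level was 640 to 2063 CPM in deletion libraries, 19929 to 23485 CPM in A828V libraries without carbon, 654 CPM on sucrose and 504 to 2490 CPM in wild type. Most of the sum without carbon was eas, at 16714 to 19834 CPM. al-1 there, at 217 to 241 CPM, overlapped wild type at 87.2 to 295 CPM. con-10 in deletion libraries 1 and 2 (59.1 and 54.6 CPM) was about as high as without carbon (38.1 to 55.9 CPM). Of the 6 markers, con-13 was at 0 in deletion library 4 and had counts in every other library. Both count comparisons of the A828V strain without carbon therefore also differ in conidia markers, and their part in the results was not tested. In RNA from a whole fungus, fewer cells of a type and less RNA per cell cannot be told apart.

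The synthetase genes were moderately expressed and differed widely among themselves. In FPKM, the authors' fragment count scaled by transcript length and library size, which allows genes to be compared, their means over the 11 libraries ran from 4.58 for cyt-18 to 95.7 for NCU01443. The median member had 32.5 FPKM, against 13 FPKM for the median of all genes, and 27 of 33 members had a mean above 10 FPKM. NCU01443 (chromosome V, 4720758 to 4723464) is named as a seryl-tRNA synthetase. It had 81.5, 97.9, 96.7 and 81.6 FPKM in deletion libraries, 83.0, 90.4 and 101 FPKM in A828V libraries without carbon, 100 FPKM on sucrose, and 116, 109 and 96.4 FPKM in wild type. These values stayed within 1.42-fold of each other, the narrowest range of any member, and the groups overlapped. cyt-18 (NCU03030, chromosome I, 8387331 to 8390193) encodes the mitochondrial tyrosyl enzyme, which in Neurospora also takes part in splicing group I introns. It had 2.67, 1.24, 3.78 and 3.05 FPKM in deletion libraries, 3.04, 2.84 and 3.0 FPKM in A828V libraries without carbon, 9.54 FPKM on sucrose, and 11.2, 4.88 and 5.18 FPKM in wild type. The deletion libraries and the A828V libraries without carbon were all below the sucrose and wild-type libraries.

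**Figure D1:**
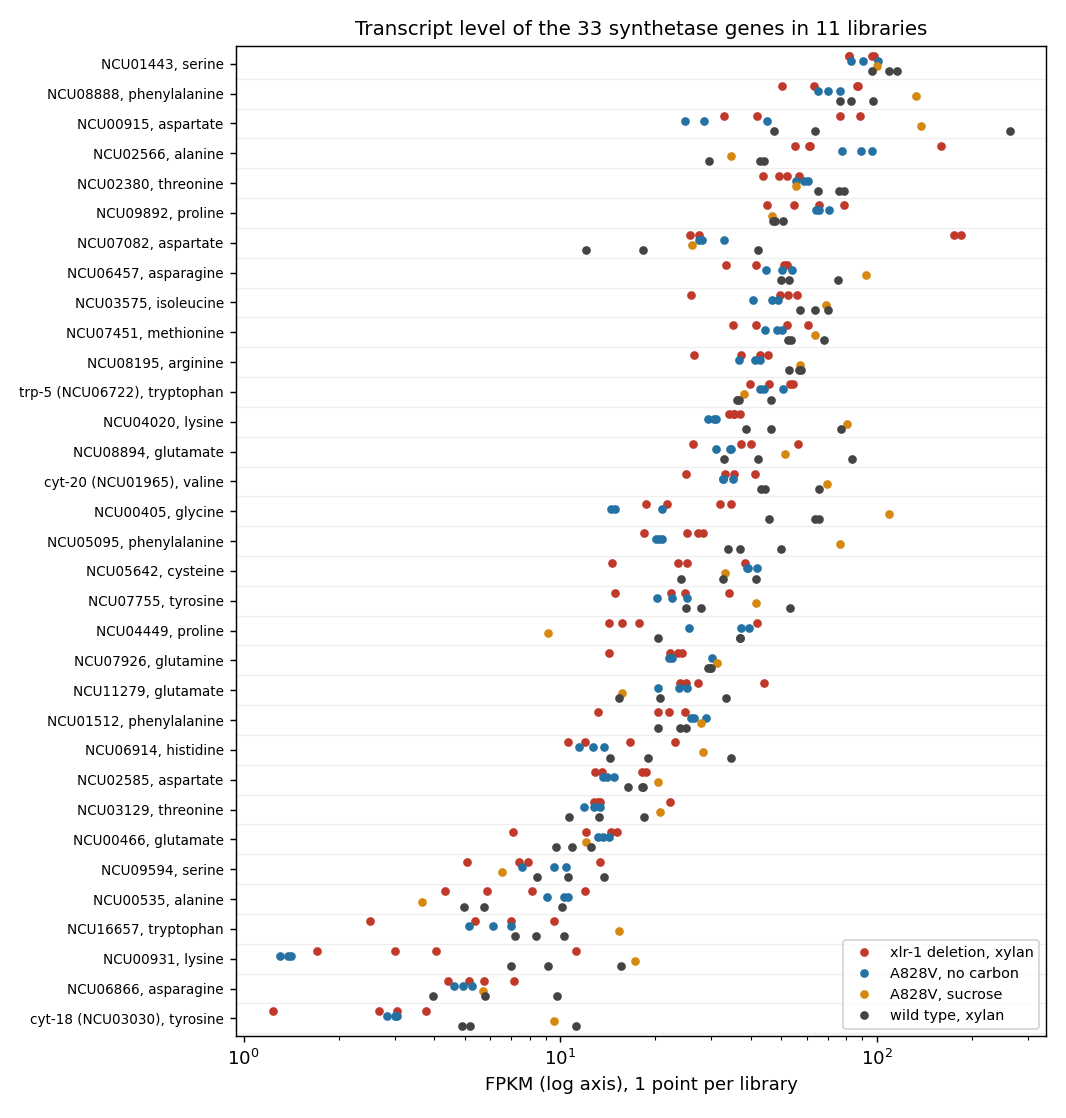
Level of each of the 33 synthetase genes in FPKM (log axis), with the locus and the amino acid in its product name on the vertical axis, ordered by mean. Each point is 1 library, coloured by group. Means ran from 4.58 FPKM (cyt-18, bottom) to 95.7 FPKM (NCU01443, top).

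The highest level of a member exceeded its lowest by 2.76-fold for the median member. The range was under 2-fold for 6 members, 2- to 5-fold for 20 and over 5-fold for 7. The widest ranges were those of NCU07082 (aspartyl, 15.3-fold), NCU00931 (lysyl, 13.2-fold), NCU00915 (aspartyl, 10.7-fold), cyt-18 (9.01-fold) and NCU00405 (glycyl, 7.52-fold). Of the 4 group means in CPM, that of the single sucrose library was the highest for 23 members, and that of the A828V strain without carbon was the lowest for 27. Summed over the 33 members, the share of gene counts was 0.331% ± 0.0825 (SD, n = 4) in the deletion strain, 0.27% ± 0.00889 (SD, n = 3) in carbon-deprived A828V libraries, 0.43% on sucrose (95% Clopper-Pearson interval 0.4265% to 0.4333%, counting error only) and 0.355% ± 0.0516 (SD, n = 3) in wild type. The lowest and highest deletion libraries, at 0.219% and 0.416%, enclosed every other group but sucrose.

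Where 2 genes were named for 1 amino acid, their levels were far apart and kept their order. In each of the 8 amino acids with 2 genes, the gene with the higher mean FPKM was the higher one in 11 of 11 libraries. The ratio of the means ran from 2.16 for proline to 10.4 for serine. The mean that ranked them came from the same libraries, and pairs of other genes were not compared. The seryl pair was NCU01443 at 95.7 ± 11.1 FPKM and NCU09594 at 9.16 ± 2.73 FPKM, mean ± SD over the 11 libraries. The asparaginyl pair was NCU06457 at 54.4 ± 16.3 FPKM and NCU06866 at 5.68 ± 1.6 FPKM. The lysyl pair was NCU04020 at 43.2 ± 18.2 FPKM and NCU00931 at 6.63 ± 5.88 FPKM. Both lysyl genes had their highest level on sucrose and their lowest in an A828V library without carbon, and only the range of the lower one exceeded 5-fold. The tyrosyl pair was NCU07755 at 28.3 ± 10.9 FPKM and the mitochondrial gene cyt-18 at 4.58 ± 3.07 FPKM. The tryptophanyl pair was trp-5 (NCU06722) at 44.3 ± 6.4 FPKM and NCU16657 at 7.62 ± 3.32 FPKM. The alanyl pair, NCU02566 and NCU00535, stood at 68.4 ± 37.3 and 7.7 ± 2.89 FPKM.

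The amino acids with 3 genes were less uniform. The aspartyl gene NCU00915 was above the next, NCU07082, in 8 of 11 libraries, and the glutamyl gene NCU08894 was above NCU11279 in 9 of 11. The phenylalanyl enzyme of the cytosol is built of an alpha and a beta subunit, and these genes were not at equal levels. The beta subunit gene NCU08888 had 80.9 ± 21.8 FPKM and was above the alpha subunit gene NCU05095, at 32.5 ± 17.3 FPKM, in 11 of 11 libraries.

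**Figure D2:**
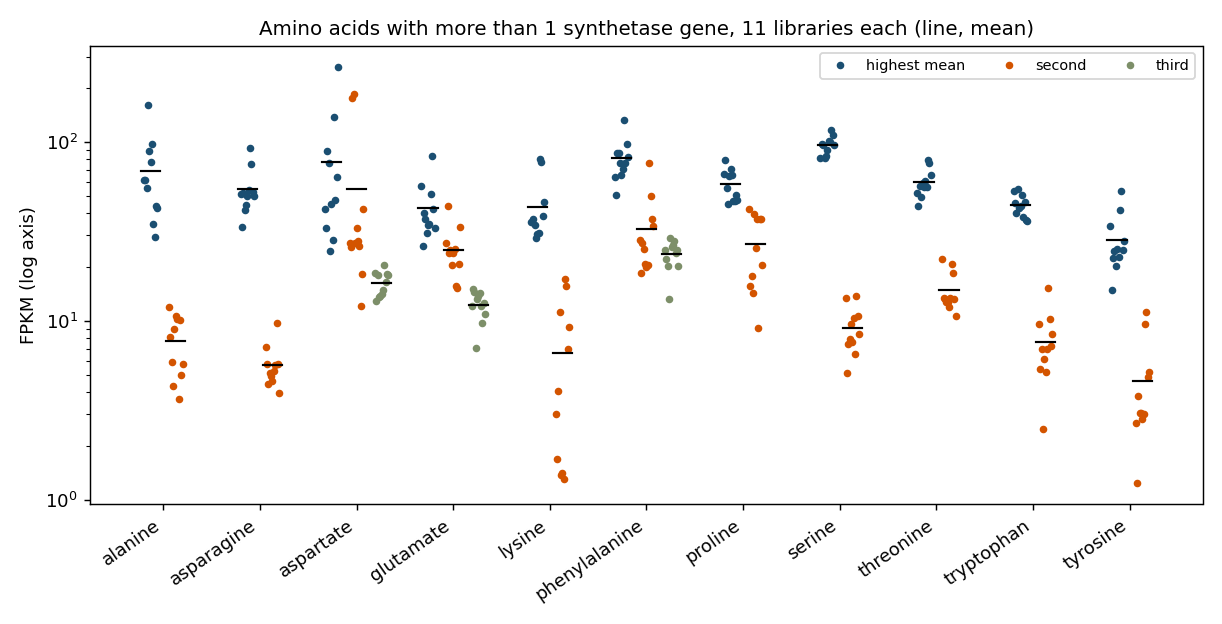
FPKM (log axis) of the genes named for the same amino acid, for the 11 amino acids with more than 1 gene. Points are the 11 libraries, lines are means, and colours rank the genes of an amino acid by mean. The points of the higher and the lower gene separate for every amino acid with 2 genes. For aspartate, glutamate and phenylalanine, with 3 genes each, points of different genes overlap.

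Without carbon, the A828V strain had lower levels of many synthetase transcripts than the same strain on sucrose. By edgeR's quasi-likelihood test with Benjamini-Hochberg adjustment over all 8557 genes tested, and a call at an adjusted p under 0.05, 14 of 33 members were lower and 0 were higher. Over all genes tested, 10.4% were called lower and 8.39% higher. At an unadjusted p under 0.05, 21 members were lower and 1 was higher, which is 66.7% of the members, against 34.3% of all genes. The median log2 fold change was -1.29 for the members and 0.11 for all genes tested. Of the 6 conidia markers, 3 were called higher and 0 lower in the same comparison. The comparison has 3 libraries against 1, and the single sucrose library is assumed to vary like the other groups. All 33 members passed the filter on low counts.

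Among the called members, the largest differences were those of genes for lysine, glycine, phenylalanine and tyrosine. NCU00931 (chromosome I, 6685222 to 6687600), the lysyl gene with the lower level of its pair, had 2.46, 2.58 and 2.25 CPM in A828V libraries without carbon, against 42.8 CPM on sucrose. Its log2 fold change was -4.13 (SE 0.87, edgeR adjusted p = 0.0109), a level 17.5-fold lower without carbon. NCU00405 (chromosome III, 3742898 to 3745580), the sole glycyl gene, had 27.2, 43.7 and 30.2 CPM without carbon, against 377 CPM on sucrose. It was 11.2-fold lower without carbon (log2 fold change -3.48, SE 0.51, edgeR adjusted p = 0.00318). In both genes the libraries without carbon were close together and far below the sucrose library.

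NCU05095 (chromosome VI, 3754606 to 3756861), the phenylalanyl alpha subunit gene, had 32.5, 34.4 and 35.3 CPM without carbon, against 220 CPM on sucrose. It was 6.45-fold lower without carbon (log2 fold change -2.69, SE 0.39, edgeR adjusted p = 0.00318). The gene of its partner, the beta subunit, fell by less, with a log2 fold change of -1.81 (SE 0.40, edgeR adjusted p = 0.0145), and the difference between the subunits was not tested. cyt-18 had 8.63, 8.42 and 8.38 CPM without carbon, against 37.7 CPM on sucrose. Its log2 fold change was -2.15 (SE 0.59, edgeR adjusted p = 0.0309). NCU04020 (chromosome VI, 2470344 to 2473145), the lysyl gene with the higher level, had 51.7, 58.8 and 59.2 CPM without carbon, against 248 CPM on sucrose. Its log2 fold change was -2.13 (SE 0.40, edgeR adjusted p = 0.00699). The sucrose library stood above all 3 libraries without carbon for each of these genes. With a single sucrose library such separation is common. Of all genes tested, 41.3% had the sucrose library above all 3 and 47.3% had it below. For the members these shares were 84.8% and 15.2%. The aspartyl gene NCU00915 had 60.3, 121 and 70.3 CPM without carbon, against 544 CPM on sucrose, and its log2 fold change of -2.70 (SE 0.87) missed the threshold at an edgeR adjusted p of 0.0545.

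The other 9 genes called lower served valine, aspartate, threonine, isoleucine, asparagine, histidine, arginine, phenylalanine and tryptophan, with log2 fold changes between -1.88 and -1.04. Among them was cyt-20 (NCU01965), the gene of the valyl enzyme, known in Neurospora to serve both the cytosol and the mitochondrion. cyt-20 had 115, 119 and 121 CPM without carbon, against 369 CPM on sucrose (log2 fold change -1.64, SE 0.39, edgeR adjusted p = 0.0189). The tryptophanyl gene trp-5 had 113, 107 and 113 CPM without carbon, against 115 CPM on sucrose, and its log2 fold change of -0.05 (SE 0.35) did not pass the test. The second tryptophanyl gene, NCU16657, was lower, at 8.13, 6.84 and 9.01 CPM without carbon against 26.4 CPM on sucrose (log2 fold change -1.72, edgeR adjusted p = 0.0298). The tryptophanyl pair thus held 1 gene that passed the test and 1 that did not, and the difference between them was not tested.

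The 5 members with a positive log2 fold change were NCU00535, NCU04449, NCU02566, NCU11279 and NCU09892, named for alanine, proline, alanine, glutamate and proline, and none was called. This includes both alanyl genes and both prolyl genes. NCU00535 had 12.6, 14.9 and 13.1 CPM without carbon, against 6.33 CPM on sucrose. Its log2 fold change of 1.10 had an SE of 0.48 and an edgeR adjusted p of 0.135.

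The size of the shift depended on the unit. On log2(FPKM + 1) with limma, 4 members were lower and 1, the prolyl gene NCU04449, was higher, while the median of all genes was 0.44 rather than 0.11. On that scale 5.22% of all genes were called lower. Higher calls made up 76.3% of all calls there and 44.5% in the count test. Relative to the median of all genes, the median log2 fold change of the members was -1.41 in counts and -0.94 in FPKM. NCU01512, a phenylalanyl gene whose locus overlaps NCU01511, had a log2 fold change of -1.93 in counts and -0.04 in FPKM, the widest gap between the units of any member, and was not called on either. Lower calls numbered 4, 5 and 5 without A828V library 1, 2 and 3 from the cultures without carbon, against 4.79%, 6.34% and 4.9% of all genes. The calls of NCU00405, NCU00931, NCU04020 and NCU05095 were kept under every alternative run, all of which used the same sucrose library.

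**Figure D3:**
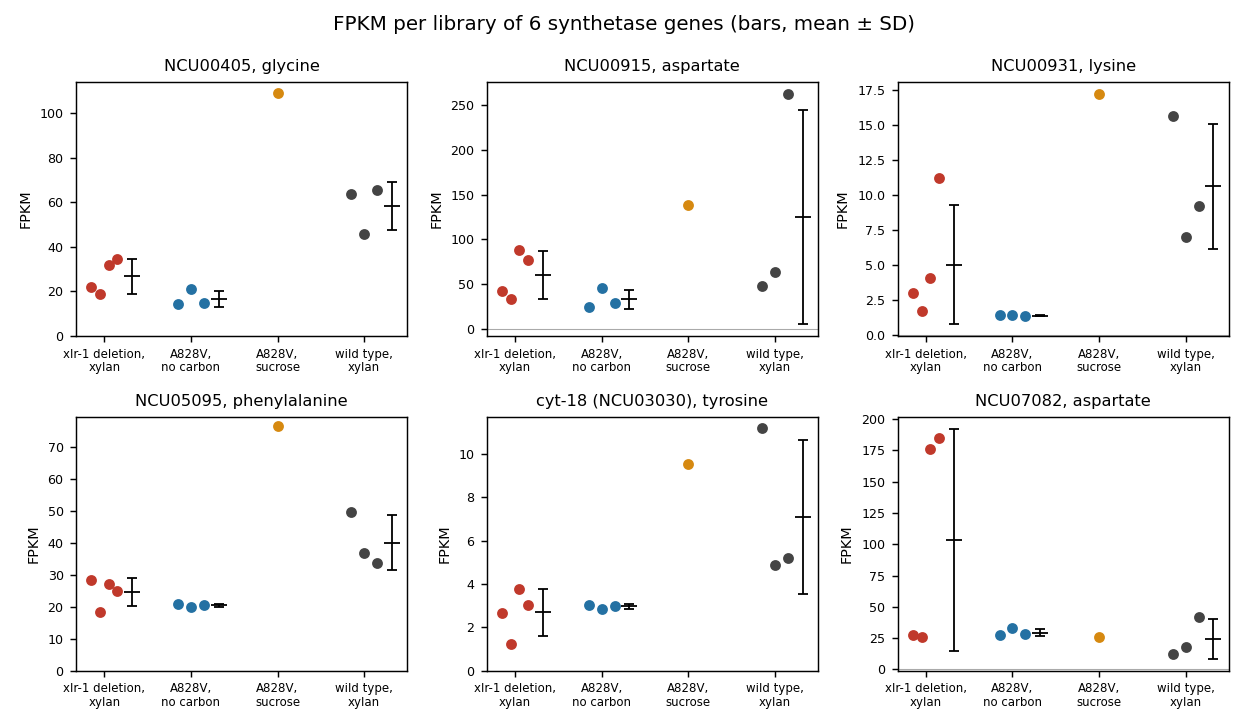
FPKM per library of 6 synthetase genes, named with their amino acid, in the 4 groups. Points are libraries, and bars are the mean ± SD of groups with more than 1 library. In 5 of the genes the A828V libraries without carbon lie below the sucrose and wild-type libraries, while NCU07082 is high in deletion libraries 3 and 4 (176 and 185 FPKM).

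Against wild type on xylan, the A828V strain without carbon also had lower synthetase transcripts. Strain and medium both differ here and cannot be told apart. By the same edgeR test 9 of 33 members were lower and 0 higher, against 11.5% of all genes called lower and 9.29% called higher. At an unadjusted p under 0.05, 21 members (63.6%) were lower and 0 were higher, where 36.8% of all genes passed in either direction. The median log2 fold change was -0.75 for the members and -0.01 for all genes tested. Here too 3 of the 6 conidia markers were called higher and 0 lower. All libraries of the A828V strain without carbon lay below all wild-type libraries for 23 members (69.7%), against 25.9% of all genes tested, and above them for 2 (6.06%), against 28.4% of all genes tested.

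NCU00931 again differed most, with 2.46, 2.58 and 2.25 CPM in the A828V strain without carbon, against 35.9, 15.3 and 21.2 CPM in wild type on xylan. It was 9.88-fold lower (log2 fold change -3.30, SE 0.73, edgeR adjusted p = 0.0136). NCU00405 had 27.2, 43.7 and 30.2 CPM, against 200, 110.0 and 175 CPM in wild type. It was 4.79-fold lower (log2 fold change -2.26, SE 0.41, edgeR adjusted p = 0.00714), and its call was kept under every alternative run. The groups did not overlap in either gene.

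NCU05095 had 32.5, 34.4 and 35.3 CPM in the A828V strain without carbon, against 138, 72.4 and 75.8 CPM in wild type (log2 fold change -1.48, SE 0.31, edgeR adjusted p = 0.0111). cyt-18 had 8.63, 8.42 and 8.38 CPM, against 39.6, 17.4 and 20 CPM in wild type (log2 fold change -1.59, SE 0.46, edgeR adjusted p = 0.0367). Wild-type library 1 was the highest in both genes, and no A828V library reached a wild-type one. Without wild-type library 1, cyt-18 was no longer called, at a log2 fold change of -1.14. The aspartyl gene NCU00915 (chromosome I, 6748814 to 6751985) had 60.3, 121 and 70.3 CPM, against 160.0, 199 and 879 CPM in wild type. Its log2 fold change was -2.30 (SE 0.71, edgeR adjusted p = 0.044). The groups did not overlap, but wild-type library 3 was far above the others, and without it the log2 fold change was -1.16 and the edgeR adjusted p was 0.162.

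The remaining calls were NCU06914 (histidyl), NCU04020 (lysyl), NCU08195 (arginyl) and NCU02380 (threonyl), with log2 fold changes between -1.32 and -0.75. cyt-20 had a log2 fold change of -0.94 (edgeR adjusted p = 0.0508), and trp-5 one of -0.03. In FPKM, limma called 3 members lower, namely NCU00405, NCU00931 and NCU05095, and 1 higher, the alanyl gene NCU02566. It called 6.31% of all genes lower, and 73.7% of all calls were higher, against 44.7% in counts. Relative to the median of all genes, the members' median was -0.74 on the log2 scale in counts and -0.55 in FPKM. Lower calls numbered 1, 2 and 1 without A828V library 1, 2 and 3, and 5 without wild-type library 1. Of all genes, 3.23%, 5.2% and 3.21% were called lower without those A828V libraries, and the members came near these shares. Without wild-type library 1 it was 6.72% of all genes.

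**Figure D4:**
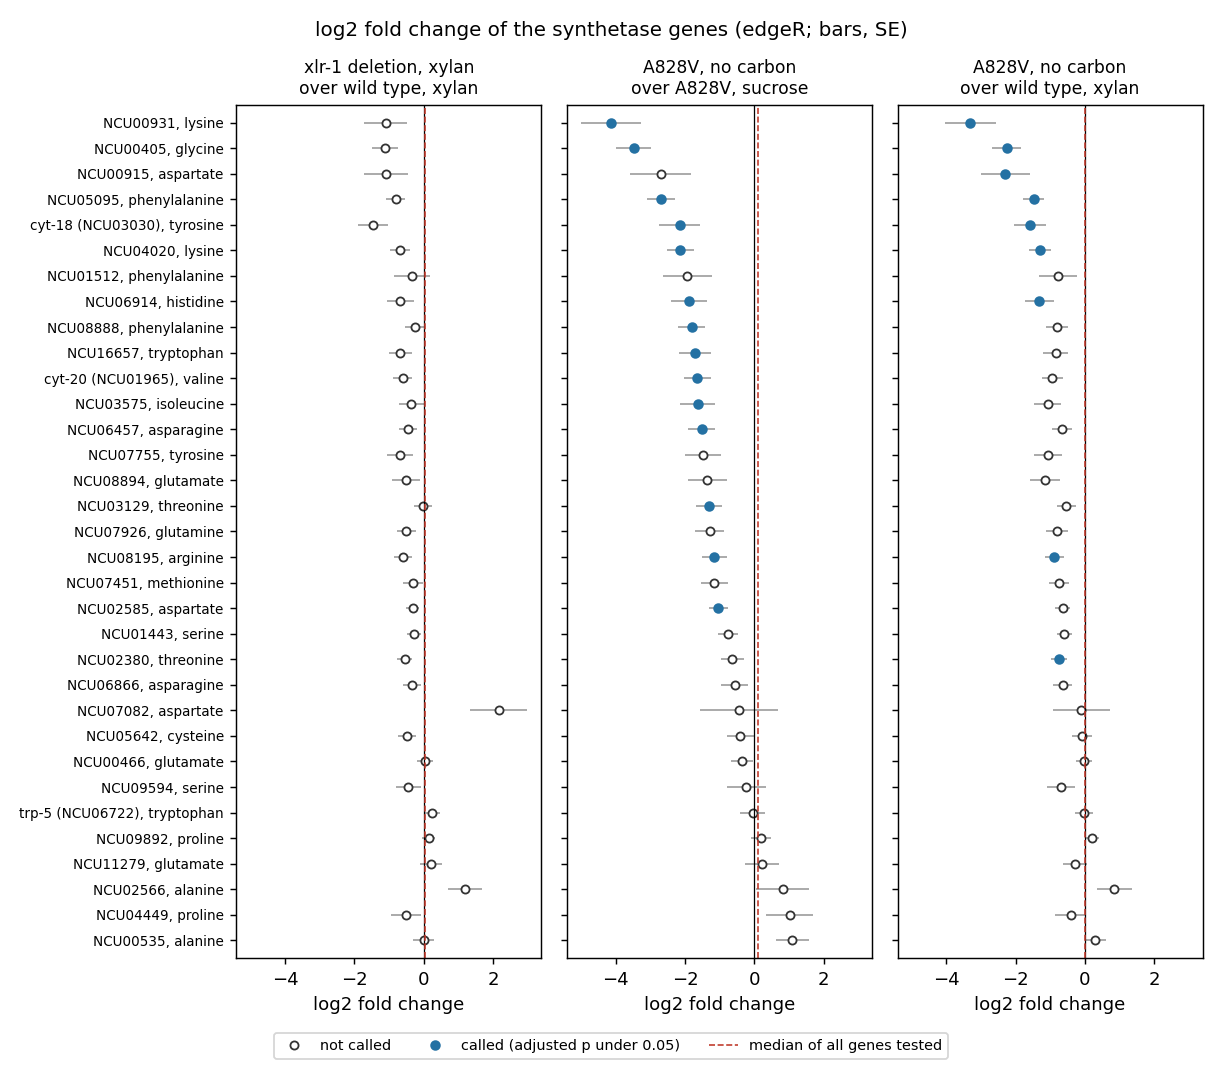
log2 fold change of each member in 3 comparisons, from the edgeR fit of counts, with bars for the SE, ordered by the second panel. Filled points passed an adjusted p of 0.05 and the dashed line is the median of all genes tested. The called members, 14 in the second panel and 9 in the third, all lie left of 0, and the first panel has no filled point.

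Wild type on xylan and wild type without carbon could be compared through the authors' deposited tables, which give group means and adjusted p-values. In the authors' deposited table, 3 of 33 members were higher on xylan and 0 were lower, where 5.91% of all genes were called higher and 1.93% lower. For 28 of the 33 the mean was higher on xylan, and the median log2 fold change was 0.76 for the members and 0.04 for all genes. Of the 6 conidia markers, 5 were called lower on xylan in that table, and their part in the result was not tested. In the authors' deposited table, NCU00931 had a mean of 12.0 FPKM on xylan and 1.06 FPKM without carbon (adjusted p = 7.91e-05). NCU00915 had 149 FPKM on xylan and 28.5 FPKM without carbon (adjusted p = 0.0197 in the authors' deposited table). NCU00405 had 60.5 FPKM on xylan and 12.6 FPKM without carbon (adjusted p = 0.00188 in the authors' deposited table). These 3 genes are among the 9 called in the A828V strain without carbon against wild type on xylan, a comparison that uses wild type on xylan as well. cyt-18, at 8.71 FPKM on xylan and 3.32 FPKM without carbon, was not called (adjusted p = 0.167 in the authors' deposited table).

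With both strains deprived of carbon, the synthetase means of the A828V strain and wild type lay close together in the authors' deposited table. There, 0 members were called in either direction, where 2.94% of all genes were called higher and 1.57% lower in the A828V strain. The median log2 fold change was -0.03 for the members and -0.05 for all genes, with 15 members above 0 and 18 below. Of the 6 conidia markers, 2 were called lower in the A828V strain and 0 higher. NCU00931 had 1.37 FPKM in the A828V strain and 1.22 FPKM in wild type in the authors' deposited table. NCU00405 had 15.5 FPKM in the A828V strain and 14.5 FPKM in wild type, and NCU00915 had 33.3 FPKM in the A828V strain and 32.8 FPKM in wild type. Those 3 transcripts thus had close means in both strains without carbon in the authors' deposited table. The tables give means without a spread, and unadjusted p-values for them were not used here. Their wild type without carbon was scaled anew in each table, and NCU00405 stood at 12.6 FPKM in one and 14.5 FPKM in the other.

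**Figure D5:**
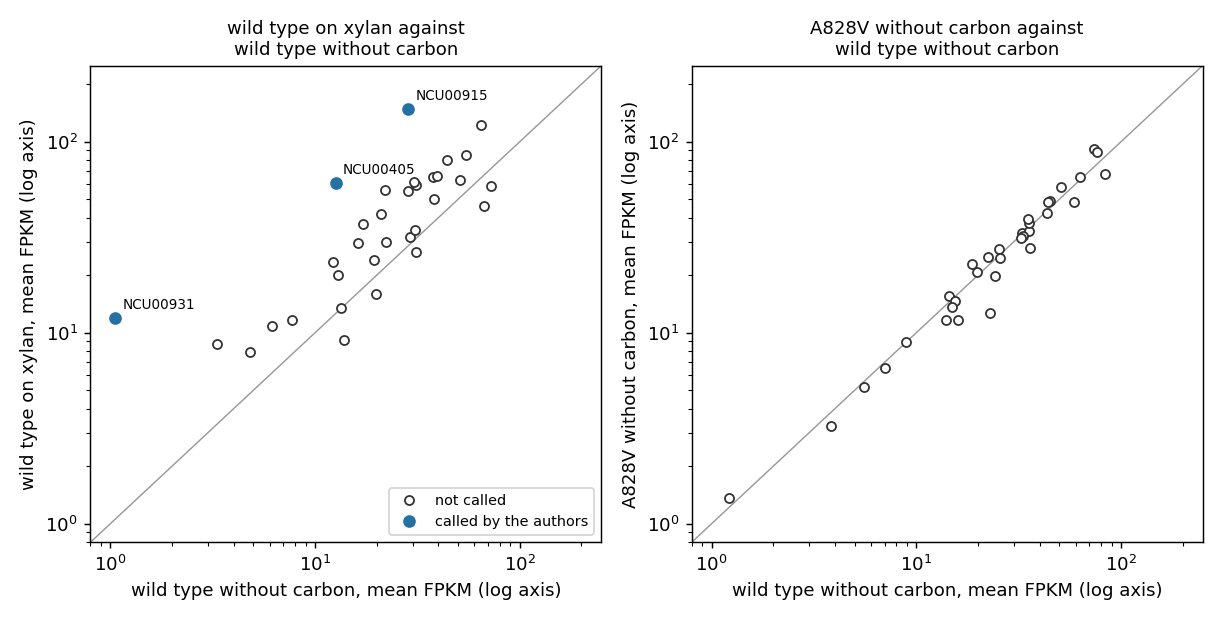
The authors' mean FPKM of each member (log axes) in wild type on xylan (left) and in the A828V strain without carbon (right), each against wild type without carbon. The line marks equal levels. On the left 28 of 33 points lie above it and the 3 that the authors' table calls are named. On the right the points lie along it.

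Loss of xlr-1 gave no called change of a synthetase gene on xylan. By edgeR's test 0 of 33 members were higher and 0 lower than in wild type on xylan, where 0.0234% of all genes were called higher and 0.573% lower. At an unadjusted p under 0.05, 6 members were lower and 2 were higher, which is 24.2% of the members, against 14.3% of all genes. DESeq2 called 1 of 33 members lower, and limma on FPKM called 0 members. Of all 9758 genes in the count tables, a wider base than that of edgeR, DESeq2 called 2.25% lower. Of all calls in this comparison, 3.92% were higher by edgeR, 43.2% by DESeq2 and 25.0% by limma on log2(FPKM + 1). The median log2 fold change was -0.45 for the members and 0.05 for all genes tested, and 27 of 33 were negative. All deletion libraries lay below all wild-type libraries for 4 members (12.1%), against 5.01% of all genes tested, and above them for 1 (3.03%), against 4.7% of all genes tested.

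cyt-18 was the member with the lowest p in this comparison. It had 8.22, 3.72, 12.8 and 12.4 CPM in deletion libraries, against 39.6, 17.4 and 20 CPM in wild type. The groups did not overlap, the log2 fold change was -1.46 (SE 0.42), and the edgeR adjusted p was 0.162, against 0.0288 with DESeq2. For the lysyl gene NCU00931 the call turned on the fit. It had 6.05, 3.08, 8.43 and 27.9 CPM in deletion libraries, against 35.9, 15.3 and 21.2 CPM in wild type, so the groups overlapped through deletion library 4. Its log2 fold change was -1.09 (edgeR adjusted p = 0.468), and without that library it was -2.09 (edgeR adjusted p = 0.0802). Same-numbered wild-type and deletion libraries deviated together, but only number 1 did so clearly more than libraries of different number. Number 4 occurs only in the deletion strain, so blocking on the number also takes deletion library 4 out of this difference. In the fit planned for the block, NCU00931 had a log2 fold change of -2.09 (edgeR adjusted p = 0.0818). In a fit of these groups alone it was called lower with the block, an alternative added after the data had been seen (log2 fold change -2.05, edgeR adjusted p = 0.0465), and not called without it (log2 fold change -1.08, edgeR adjusted p = 0.69).

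The largest difference was not shared by all deletion libraries. NCU07082 (chromosome VI, 218351 to 221832), an aspartyl gene singled out after its values were seen, had 90.0, 78.9, 608 and 821 CPM in deletion libraries, against 47.9, 61.9 and 158 CPM in wild type. Deletion libraries 3 and 4 were high, libraries 1 and 2 were within the range of wild type, and the log2 fold change of 2.16 (SE 0.83) had an edgeR adjusted p of 0.284. With the replicate block, which takes deletion library 4 out of this difference, the log2 fold change was 1.15. The A828V strain had 76.2, 93.9 and 79.2 CPM without carbon and 114 CPM on sucrose. NCU00915, the other variable aspartyl gene, had 120.0, 85.6, 280 and 290 CPM in deletion libraries, again higher in libraries 3 and 4, and its highest wild-type value was also that of library 3.

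The alanyl gene NCU02566 (chromosome I, 2749987 to 2754882), likewise singled out after its values were seen, was the member whose deletion libraries all lay above wild type. It had 259, 259, 270 and 1001 CPM in deletion libraries, against 148, 219 and 225 CPM in wild type. The log2 fold change was 1.18 (SE 0.49, edgeR adjusted p = 0.312), and without deletion library 4 it was 0.36. Its locus overlaps NCU02565 and NCU02567, and the part of their reads in these counts was not tested.

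The genes that work beside the synthetases were read from lists set by product name or symbol. The leucyl genes leu-5 and leu-6 were lower in the A828V strain without carbon than on sucrose, with log2 fold changes of -1.42 (SE 0.38, edgeR adjusted p = 0.0279) and -2.14 (SE 0.63, edgeR adjusted p = 0.0412). leu-5 had 26.8, 24.7 and 30.2 CPM without carbon, against 73.1 CPM on sucrose. leu-6 had 71.7, 77.6 and 83.6 CPM without carbon, against 342 CPM on sucrose. Neither was called against wild type on xylan, each at an edgeR adjusted p of 0.0621, or in the deletion strain.

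Of the genes of cross-pathway control, cpc-1 encodes its transcription factor, cpc-2 a ribosome-associated protein of the RACK1 family, and cpc-3 the sensor kinase. cpc-1 had 628, 767 and 534 CPM in the A828V strain without carbon, against 1933 CPM on sucrose (log2 fold change -1.59, SE 0.48, edgeR adjusted p = 0.0438). cpc-2 had 299, 505 and 397 CPM without carbon, against 2499 CPM on sucrose (log2 fold change -2.64, SE 0.42, edgeR adjusted p = 0.00421). cpc-3 had 105, 75.9 and 109 CPM without carbon, against 74.8 CPM on sucrose, and was not called. In the A828V strain without carbon cpc-2 stood below its level in wild type on xylan, which was 1489, 862 and 968 CPM (log2 fold change -1.47, edgeR adjusted p = 0.0154), while cpc-1 was not called (log2 fold change -0.45). None of these genes was called in the deletion strain.

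Counts called lower in the A828V strain without carbon, first against A828V on sucrose and then against wild type on xylan, were 35 and 32 of 46 genes of amino acid synthesis. They were 61 and 56 of 68 cytosolic ribosomal protein genes, 12 and 9 of 16 mitochondrial ribosomal protein genes, 10 and 7 of 38 translation factor genes, and 4 and 1 of 32 genes of tRNA processing and modification. Over all genes tested, 10.4% were called lower against sucrose and 11.5% against wild type on xylan, so the tRNA processing list, at 12.5% and 3.12%, was near or below the share of all genes. Each of these lists had at most 1 gene called higher in either comparison. The 14 and 9 of 33 synthetases thus lay, as a share, between ribosomal proteins and tRNA processing, and no difference between lists was tested. The median log2 fold changes against sucrose were -2.80 for amino acid synthesis, -2.40 for cytosolic ribosomal proteins, -1.84 for mitochondrial ribosomal proteins, -1.02 for translation factors and -0.62 for tRNA processing. In the deletion strain none of these lists had a called gene, and at an unadjusted p under 0.05 the counts were 31 of 46, 22 of 68, 7 of 16, 8 of 38 and 1 of 32, in the same order of lists, against 14.3% of all genes. The tRNA processing list was below that share.

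Among the genes of lowest p in their lists against sucrose, arg-4, of arginine synthesis, had a log2 fold change of -4.32 (edgeR adjusted p = 0.00255) and NCU03737, named elongation factor Tu, one of -3.78 (edgeR adjusted p = 0.0115). NCU03854, named D-tyrosyl-tRNA(Tyr) deacylase, an enzyme type that removes wrongly attached D-amino acids from tRNA, was lower in both comparisons, with a log2 fold change of -1.74 against sucrose (edgeR adjusted p = 0.00958) and -1.10 against wild type on xylan (edgeR adjusted p = 0.0209). NCU03149, named tRNA-specific adenosine deaminase, was higher without carbon than on sucrose, at a log2 fold change of 1.11 (edgeR adjusted p = 0.0422).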

How the data were processed

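RNA-seq gave 11 libraries. Per the submitters' processing notes, the tools were TopHat2 2.04, HTSeq 0.6, Cufflinks 2.02 and Cuffdiff 2.02. The sources used here give neither their settings nor the genome build. The authors deposited raw counts of 9758 genes per library, and their 5 entries that name no gene (6.34% to 29.57% of a table's total) stayed out. The deposited FPKM tables hold the authors' length- and depth-scaled values. Per the file headers, the authors' comparison tables hold mean FPKM, log2 fold changes and adjusted p-values, by a method of adjustment that the sources used here do not give. Their 12 columns of single libraries were not used. Intervals cover counting error only.

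The main test was that of edgeR 4.0.16 (R 4.3.3) on counts, with TMM factors, filterByExpr (count minimum of 10), the quasi-likelihood F-test, 2-sided, Benjamini-Hochberg adjustment over 8557 genes and calls at an adjusted p under 0.05. One fit held all 11 libraries, with 7 residual degrees of freedom and a common biological coefficient of variation of 0.411. The steps were run on simulated counts with the same spread for all genes, for the deletion strain against wild type on xylan only. The comparisons of the A828V strain were not simulated. CPM uses TMM-scaled library sizes. Alternatives were DESeq2 1.42.0, limma 3.58.1 on FPKM, other size factors, no filter, fits of 2 groups alone, a replicate block and leaving out each library. The single sucrose library was never left out. Deviations from group means of same-numbered deletion and wild-type libraries correlated at 0.64, 0.264 and 0.252, and these numbers were taken to pair them. Differently numbered libraries correlated at -0.563 to 0.247. Deletion library 2 with wild-type library 3 reached 0.247, so only number 1 stood apart and the pairing is uncertain. No libraries agreed within sampling noise.

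Members were named in full if called with the 5 largest log2 fold changes of a comparison, of highest or lowest mean FPKM, or with a RefSeq symbol. Others were chosen after their values were seen. The members and lists were chosen with earlier results of these data known. Gene symbols and chromosomes came from RefSeq (assembly NC12). Promoter and protein sequences were not used here.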

Additional observations from a re-analysis of the deposited data

Results flagged for a closer look

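In the deletion strain, the only group of 4 libraries, 3 of the 33 members had 1 library that stood far from the other 3, measured by Dixon's test on CPM. Chance gives such a library in about 1 of 20 groups. The alanyl gene NCU02566 had 1001 CPM in deletion library 4, where the next highest library had 270 and the lowest 259. The tryptophanyl gene trp-5 (NCU06722) had 195 CPM in deletion library 4, where the next had 116 and the lowest 105. The prolyl gene NCU09892 had 134 CPM in deletion library 2, where the next had 98.4 and the lowest 94.5. None of these genes was called against wild type on xylan.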

How the results depend on the processing

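No result reversed among the 1320 values of members under alternatives, and 74 values that were not called in either fit changed sign. Between the deletion strain and wild type on xylan, members called lower numbered 0 by edgeR, 1 with DESeq2 and 0 with the planned replicate block and 1 with a replicate block over these groups alone, a fit chosen after seeing the data. The same 4 fits called 0.573%, 2.25%, 0.456% and 1.05% of all genes lower. The DESeq2 share is of all 9758 genes in the count tables, and the others are of the genes that passed the filter. Because number 4 occurs only in the deletion strain, both replicate blocks took deletion library 4 out of this comparison. For the A828V strain without carbon against sucrose, the 14 lower calls became 4 by limma on log2(FPKM + 1), 4 on log2(FPKM + 0.1), 5 without a filter on FPKM and 25 in a fit of the 2 groups alone. Of all genes, 5.22%, 4.98%, 4.31% and 30.6% were called lower in these fits, against 10.4% by edgeR. Higher calls, 0 by edgeR, became 1, 1 and 3 by limma with either pseudocount and in the fit of the 2 groups. Those fits called 1368 and 1320 of 8165 genes and 2676 of 8455 genes higher. Leaving out 1 A828V library without carbon gave 4 to 5 lower calls, against 4.79% to 6.34% of all genes. No paired analysis was possible for sucrose because its library has no number. Against wild type on xylan, the 9 lower calls became 14 with DESeq2, 3 and 3 by limma with either pseudocount, 4 without a filter on FPKM, 17 in a fit of the 2 groups and 15 with the replicate block. The shares of all genes called lower were 13.9%, 6.31%, 6.15%, 5.14%, 18.4% and 14.9% in the same order, against 11.5% by edgeR. The DESeq2 share is again of all 9758 genes. Higher calls became 1 in the limma fits with a filter, in the fit of the 2 groups and with the replicate block. Those fits called 1445 and 1311 of 8165, 1489 of 8285 and 1066 of 8326 genes higher. Leaving out 1 library gave 1 to 9 lower calls, against 3.21% to 11.6% of all genes. The A828V and wild-type numbers share no more than a number, as their libraries correlated at -0.103, -0.234 and -0.174. The cause of these moves was not tested. The sucrose group held 1 library, and the other groups held 3 or 4.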
